A study of Homo sapiens with 6 samples.

Results

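ZNF521 and ZNF423 are paralogous human genes that encode large nuclear proteins built almost wholly of C2H2 zinc fingers. Both were taken from the read count table by their symbols, 2 of its 52088 entries. ZNF521 was singled out because it had the largest decrease of all genes in the PAX6_Ta knockout, and ZNF423 was added as its paralogue, so the fall of ZNF521 in that knockout is what chose it and is described here without a test. Of the 2 genes, only ZNF521 had enough reads to be tested.

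The libraries came from K562, a human erythroleukaemia cell line, and the groups were Control cells (genotype WT), cells in which the ultra-conserved element (UCE) PAX6_Tarzan was deleted (PAX6_Ta KO) and cells in which the UCE PBX3_Claudia was deleted (PBX3_Cl KO), each with 2 libraries of total RNA. The study deleted each non-coding element with paired guide RNAs and Cas9 to ask which genes its loss affects. Knockout cells were transfected with a plasmid, selected with puromycin and grown from picked clones, and the count columns of each knockout carry the name of 1 clone, whereas the labels give Control as WT and name no transfected or cloned control. Loss of an element therefore cannot be told apart from transfection, selection and cloning in a comparison with Control. The labels do not say that replicates were separate cultures, so the p-values measure the spread between these libraries only, which may be technical.

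ZNF521, also known as EHZF or EVI3, is a transcriptional co-factor that is abundant in haematopoietic stem and progenitor cells and declines as they mature. It binds and restrains EBF1, the factor that commits B-lymphoid cells, and GATA1, the master regulator of erythroid genes, and it carries a short N-terminal motif that recruits the NuRD chromatin-remodelling and deacetylase complex. ZNF423, also known as OAZ or EBFAZ, shares these partners and in addition joins BMP-activated SMAD proteins, retinoic acid receptors and Notch on their target genes, and it marks cells committed to the fat lineage.

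The genes lie on different chromosomes. In GENCODE release 44 lifted to GRCh37, ZNF521 (ENSG00000198795) covers chr18:22641888-22932154 on the minus strand, 290.3 kb in all, and its canonical transcript has 8 exons, 4887 bases and a coding sequence of 3933 bases. ZNF423 (ENSG00000102935) covers chr16:49521435-49891830 on the minus strand, 370.4 kb, again with 8 exons in a canonical transcript of 7968 bases and a coding sequence of 3876 bases. In both, most of the coding sequence sits in a single long exon, 3353 coding bases of ZNF521 and 3215 of ZNF423. The coding sequences were identical at 71.7% of 3670 aligned positions. The longest stretch they share was 26 bases, shown here in capitals with 2 bases on either side because it bears on whether reads of one gene could be counted for the other.
ZNF521 coding bases 2134 to 2159: aaCACCTGCTGGACATGCACACCTTTGTct
ZNF423 coding bases 2152 to 2177: agCACCTGCTGGACATGCACACCTTTGTgt
The canonical transcripts shared no other stretch of 25 bases and 0 stretches of 50 bases, so a read of 50 bases or longer was assignable to 1 of the 2 genes by sequence.

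The 6 libraries held 45912044 to 60908470 counts. K562 identity was plain in all of them: the 10 erythroid identity markers summed to 5684 to 6599 CPM (counts scaled to a common library total after normalisation by the trimmed mean of M-values, TMM) in Control, 9009 to 10579 in PAX6_Ta KO and 7145 to 8623 in PBX3_Cl KO. The table holds no counts of the deleted elements, so the labels could not be checked directly. Exons of PAX6 and ELP4 lie between the PAX6_Ta cuts, and PAX6 read 580 and 313 in Control, 642 and 538 in PAX6_Ta KO and 433 and 400 in PBX3_Cl KO. Some markers of other cells differed between the groups. The 5 pluripotent markers summed to 4.51 to 6.08 CPM in Control, 103 to 107 in PAX6_Ta KO and 1.11 to 1.70 in PBX3_Cl KO. In Control and PAX6_Ta KO most of the sum was LIN28A, and in PBX3_Cl KO most was POU5F1, while NANOG and SOX2 had at most 1 count in any library. Of the 3 tested markers of that list, LIN28A and DPPA4 were called higher in PAX6_Ta KO, whereas POU5F1 read 83 and 49 in Control, 14 and 23 in PAX6_Ta KO and 36 and 61 in PBX3_Cl KO and was called lower in PAX6_Ta KO (log2 fold change -1.68, edgeR adjusted p = 0.0378). That call was lost with upper-quartile scaling (0.0631) and without Control replicate 1 (0.205) or PAX6_Ta KO replicate 1 (0.288) or 2 (0.0804). The 5 fibroblast markers summed to 49.0 to 133 CPM, at most 23.1 and 3.02 to 3.14, in Control and PAX6_Ta KO mostly from COL1A2, with LUM at 0 in every library. The part of these markers in the values of ZNF521 was not tested.

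ZNF521 was abundantly transcribed in Control K562 cells, close to silent in PAX6_Ta KO and intermediate in PBX3_Cl KO. Control read 3341 and 2618 counts, PAX6_Ta KO 2 and 5 counts, and PBX3_Cl KO 900 and 831 counts. On the CPM scale these were 55.6 and 51.8, 0.0416 and 0.0950, and 20.4 and 18.1. The 3 groups did not overlap, and the replicates of Control and of PBX3_Cl KO lay far closer to each other than to any other group. In PAX6_Ta KO the level rested on 7 reads in total, so its own value is known only within wide counting limits.

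**Figure D1:**
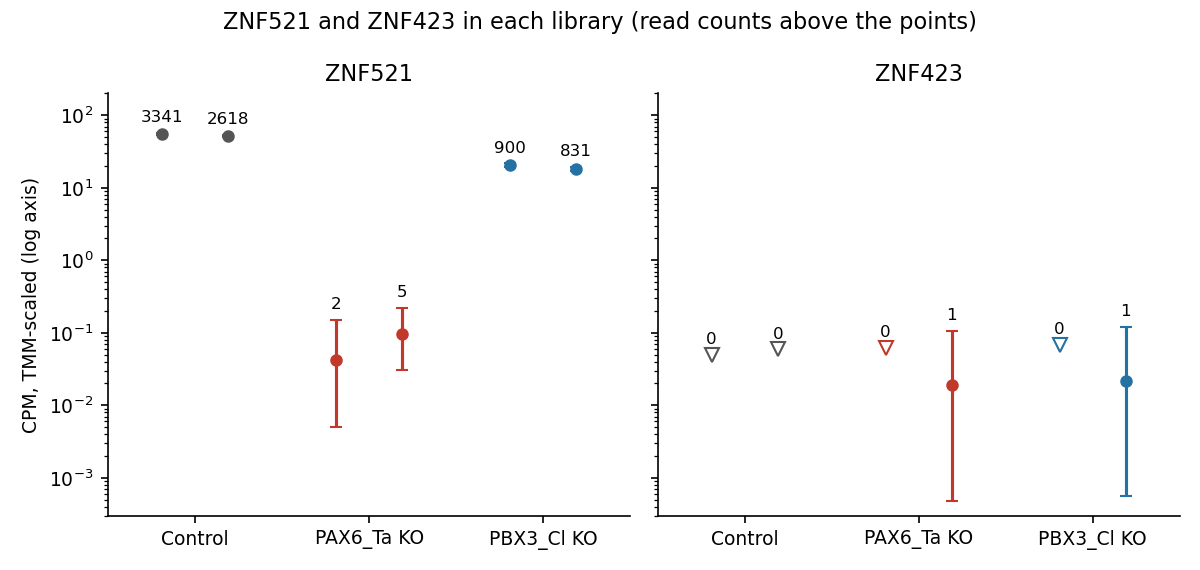
CPM (TMM-scaled, log axis) of ZNF521 and ZNF423 in each library of Control, PAX6_Ta KO and PBX3_Cl KO, with read counts above the points and exact 95% Poisson intervals, which cover counting error only. Open triangles mark libraries with 0 counts, placed at the level that 3 counts would give; ZNF521 falls from 3341 and 2618 counts in Control to 2 and 5 in PAX6_Ta KO, and ZNF423 is at 0 or 1 count everywhere.

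Group means of ZNF521 were 53.7 ± 2.69 CPM in Control, 0.0683 ± 0.0377 in PAX6_Ta KO and 19.3 ± 1.61 in PBX3_Cl KO (SD, n = 2). Divided by the 6225 bases of its exons, the levels were 8.63 ± 0.433, 0.0110 ± 0.00606 and 3.10 ± 0.258 CPM per kb (SD, n = 2). On that per-length scale ZNF521 lay above 75.9% of the 20259 tested genes with a known length in Control, above 57.5% in PBX3_Cl KO and above 0.864% in PAX6_Ta KO. Among 457 tested genes with a ZNF symbol it ranked 64 from the top in Control, 178 in PBX3_Cl KO and 452 in PAX6_Ta KO. Its place near the bottom of its own gene class in PAX6_Ta KO restates the decrease that chose it and is description.

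As a description of the contrast that chose the gene, ZNF521 was 775-fold lower in PAX6_Ta KO than in Control by summed counts (95% interval 376 to 1929 for counting error), and the fitted log2 fold change was -9.55. The 4 pairings of a PAX6_Ta KO library with a Control library gave log2 differences of -10.08 to -8.95. Without PAX6_Ta KO replicate 2, which held 5 of the 7 reads, the fitted value was -10.25, and without replicate 1 it was -9.11. Against PBX3_Cl KO, which uses the same PAX6_Ta KO libraries, ZNF521 was 277-fold lower (134 to 690) with a fitted log2 fold change of -8.07. In these bulk libraries a fall in the number of cells that transcribe ZNF521 and a fall in its RNA per cell cannot be told apart.

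The comparison of PBX3_Cl KO with Control did not enter the choice of ZNF521, though it shares the Control libraries with the one that did. ZNF521 was 2.80-fold lower in PBX3_Cl KO (2.65 to 2.95 for counting error), a log2 fold change of -1.48 ± 0.21 (SE), and the 4 pairings of libraries gave -1.62 to -1.34. The difference passed edgeR's quasi-likelihood test with an adjusted p of 0.00064 (Benjamini-Hochberg over the 20746 genes tested), and 558 of the tested genes, 2.69%, were called lower in that comparison (876 with the replicate number as a block). The decrease ranked 723 from the largest. Over the alternative settings that refitted the model its log2 fold change ran from -1.61 to -1.39, with adjusted p-values of at most 0.00419.

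The decrease of ZNF521 in PAX6_Ta KO stood next to 3 other entries that also fell almost to nothing, given here as description. TUBBP9, a tubulin pseudogene on chromosome 6, read 100 and 44 in Control, 0 and 0 in PAX6_Ta KO and 12 and 26 in PBX3_Cl KO, at least 43.7-fold lower in PAX6_Ta KO when its pair of libraries is set to the floor of 3 counts in sum. ENSG00000260725, a long non-coding RNA (lncRNA) gene on chromosome 19, read 1175 and 1193, then 2 and 3, then 81 and 96, a fitted log2 fold change of -8.69. LRCH2, a leucine-rich repeat gene on the X chromosome, read 419 and 140, then 1 and 0, then 27 and 11, a ratio of 509-fold (91.0 to 20146). All 4 entries lie on different chromosomes, and none of them had more reads in Control than ZNF521.

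**Figure D2:**
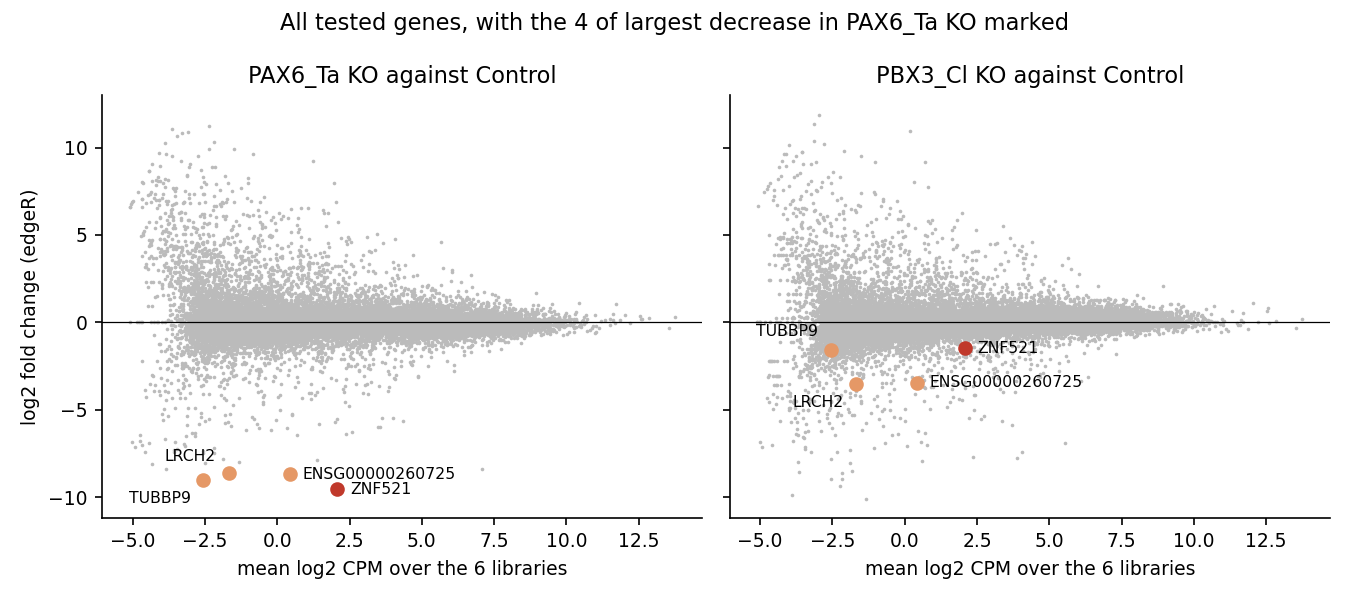
Fitted log2 fold change of every tested gene (grey) against its mean log2 CPM over the 6 libraries, for PAX6_Ta KO against Control and PBX3_Cl KO against Control. ZNF521 (red) has the lowest value in the left panel, -9.55, and lies at -1.48 in the right panel; the 3 entries that follow it in the left panel are in orange, and fitted values of genes with 0 to 3 counts in a group depend on the prior count.

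Few well transcribed genes met count thresholds that ZNF521 itself meets. Of 8837 tested genes with at least 500 counts in each Control library, 3 had at most 5 counts in each PAX6_Ta KO library: ZNF521, ENSG00000260725 and UGT8, the enzyme that makes galactosylceramide, which read 960 and 663 in Control, 3 and 3 in PAX6_Ta KO and 822 and 693 in PBX3_Cl KO. None of the 3 was at most 5 counts in both PBX3_Cl KO libraries. These thresholds were set after the values were seen. The upper one, 5, is the highest PAX6_Ta KO count of ZNF521, so they cannot show how rare such a loss is. They leave out the lncRNA gene ENSG00000266976, which read 119 and 193 in PAX6_Ta KO. Its fitted log2 fold change was -8.42, beside -7.87 for UGT8.

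ZNF423 was not detectably transcribed in any group. Its counts were 0 and 0 in Control, 0 and 1 in PAX6_Ta KO and 0 and 1 in PBX3_Cl KO. A count of 0 allows up to 0.0594 CPM in the shallower Control library on a floor of 3 counts. The gene did not pass the filter on low counts, so the planned tests gave no value, and no fold is given because every group lay at or under the floor. At this depth the near-loss of ZNF521 in PAX6_Ta KO was not accompanied by a detectable level of the paralogue, and in Control ZNF521 accounted for all reads of the pair.

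An antisense gene inside ZNF521 followed it in PAX6_Ta KO. ENSG00000264434, a lncRNA gene on the plus strand at chr18:22882090-22882924 (GRCh37), lies within ZNF521 without overlapping an annotated exon of it, and read 14 and 32 counts in Control, 0 and 0 in PAX6_Ta KO and 7 and 6 in PBX3_Cl KO. It was at least 14.0-fold lower in PAX6_Ta KO than in Control, given as description. Its log2 fold change in PBX3_Cl KO against Control was -1.55 ± 0.70 (SE, adjusted p = 0.244). Against PBX3_Cl KO it was at least 4.85-fold lower in PAX6_Ta KO, again as description. Sources used here do not give the strand setting of the read counting, so reads from introns of ZNF521 may have been counted for this gene. Its fall in PAX6_Ta KO may then repeat the fall that chose ZNF521. The gene also reached the filter on low counts through the Control libraries, with 0.233 and 0.634 CPM there.

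The genes around ZNF521 on chromosome 18 were read beside it. No tested gene outside it lay nearer than 608.4 kb, so the extent of its fall within that distance is not known. Within 5 Mb of either end, 29 of 121 annotated genes were tested. In PAX6_Ta KO against Control 0 were called higher and 2 lower (4 in all with the replicate block). The median log2 fold change of these 29, which include lncRNA genes and pseudogenes, was -0.00. It was 0.03 for the 123 tested protein-coding genes of the long arm and -0.02 for all tested genes. In that comparison 11.4% of all tested genes were called. The nearest protein-coding neighbours were IMPACT, a regulator of translation 608.4 kb towards lower coordinates, and SS18, a subunit of the BAF remodelling complex 664.1 kb towards higher ones. IMPACT read 282 and 284 in Control, 418 and 450 in PAX6_Ta KO and 500 and 401 in PBX3_Cl KO, a log2 fold change of 0.74 in PAX6_Ta KO (adjusted p = 0.0928). SS18 had a log2 fold change of -0.02 in PAX6_Ta KO and of -0.10 in PBX3_Cl KO. Neither protein-coding gene was called lower where ZNF521 was almost lost. The other 6 tested genes within 1 Mb, which include TAF4B, a TFIID subunit 874.3 kb away, and TTC39C, passed the test in no comparison. TTC39C read 2 and 0 in Control, 18 and 13 in PAX6_Ta KO and 9 and 0 in PBX3_Cl KO (adjusted p = 0.0569 in PAX6_Ta KO). The count of 2 in the window became 1 without PAX6_Ta KO replicate 1, 4 without PBX3_Cl KO replicate 1 and 5 without PBX3_Cl KO replicate 2.

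The 2 called genes of the window in PAX6_Ta KO were the antisense ENSG00000264434, which may hold reads of ZNF521, and the lncRNA gene ENSG00000264151, 1983.8 kb away. The latter read 34 and 15 in Control, 3 and 5 in PAX6_Ta KO and 0 and 1 in PBX3_Cl KO, a log2 fold change of -2.42 ± 0.71 (SE) in PAX6_Ta KO. It reached the filter on low counts through the Control libraries alone, so its call is description. Its adjusted p of 0.0448 was lost in 5 settings (0.0616 to 0.357), among them without Control replicate 1 or either PAX6_Ta KO library.

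**Figure D3:**
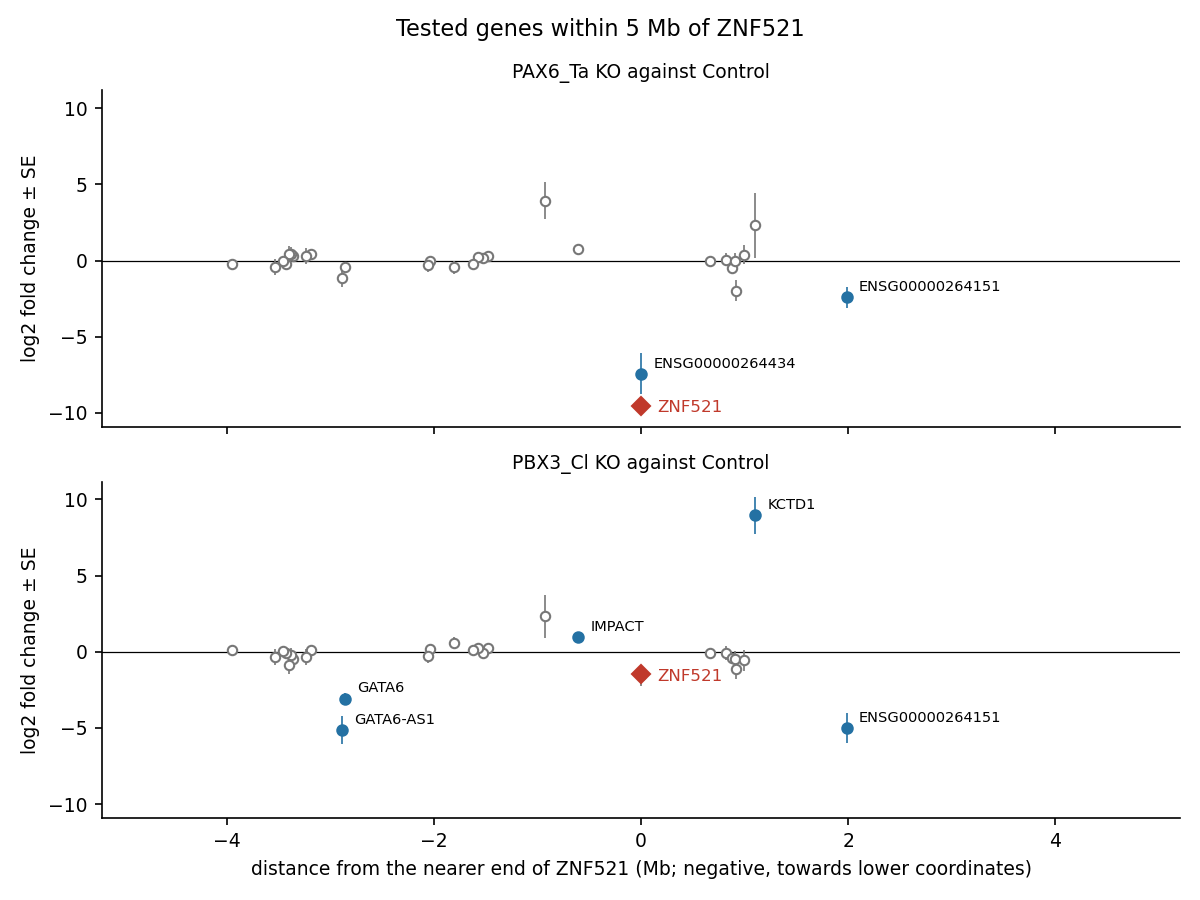
Log2 fold change ± SE of the tested genes within 5 Mb of ZNF521 against their distance from its nearer end (Mb), for PAX6_Ta KO against Control (top) and PBX3_Cl KO against Control (bottom). Filled points passed the adjusted threshold of 0.05 and ZNF521 is the red diamond, which in the top panel lies at -9.55 while the median of its neighbours is at -0.00.

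In PBX3_Cl KO against Control, 2 genes of that window were called higher and 3 lower, where 8.97% of all tested genes were called. The median was -0.10 beside -0.01 for the tested protein-coding genes of the long arm. GATA6, a zinc finger factor of endoderm and heart, read 206 and 243 in Control, 145 and 164 in PAX6_Ta KO and 19 and 25 in PBX3_Cl KO, a log2 fold change of -3.07 ± 0.38 in PBX3_Cl KO (adjusted p = 0.000219). Its divergent lncRNA gene GATA6-AS1 and ENSG00000264151 also fell, the latter 39.8-fold by summed counts (adjusted p = 0.00639). KCTD1, a BTB-domain gene 1102.7 kb from ZNF521, read 0 and 0 in Control, 1 and 0 in PAX6_Ta KO and 31 and 81 in PBX3_Cl KO, at least 45.9-fold higher than in Control (adjusted p = 0.000637). KCTD1 reached the filter on low counts through the PBX3_Cl KO libraries alone, so its call is description. IMPACT was the other gene called higher (log2 fold change 0.96, adjusted p = 0.0358), and that call was lost in 7 settings (0.0575 to 0.235), among them when any library other than PBX3_Cl KO replicate 2 was left out. IMPACT was also the called gene nearest to ZNF521 in this comparison, so no called gene lay between it and ZNF521.

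Some of the genes around ZNF423 were transcribed, although it was not detectably so. Of 149 annotated genes within 5 Mb, 47 were tested, and its nearest tested protein-coding neighbours CNEP1R1, a regulator of lipin phosphatase, and N4BP1 passed the test in no comparison. Of the 12 tested genes within 1 Mb of it, HEATR3, TENT4B, BRD7 and NKD1 were likewise never called, and CYLD, a deubiquitinase, was called between the knockouts alone (-0.83, adjusted p = 0.0358, lost with 2 groups only and without PBX3_Cl KO replicate 1 or either PAX6_Ta KO library at 0.0525 to 0.251). In PAX6_Ta KO against Control 1 gene of the 47 was called higher and 1 lower, where 11.4% of all tested genes were called. The median of the 47, of all gene types, was -0.07. It was -0.01 for the 270 tested protein-coding genes of the long arm of chromosome 16. RPGRIP1L, a protein of the ciliary transition zone 3740.2 kb away, read 660 and 629 in Control, 218 and 258 in PAX6_Ta KO and 546 and 512 in PBX3_Cl KO, a log2 fold change of -1.31 ± 0.24 in PAX6_Ta KO (adjusted p = 0.00307). GPT2, a mitochondrial alanine aminotransferase, rose in both knockouts, by 1.24 ± 0.25 in PAX6_Ta KO (adjusted p = 0.00627, and 0.141 without PAX6_Ta KO replicate 1) and by 2.00 ± 0.26 in PBX3_Cl KO (adjusted p = 0.000303) on the log2 scale. ADCY7, an adenylyl cyclase, was the other gene called in PBX3_Cl KO (2 in all, 4 with the replicate block), where 8.97% of all tested genes were called. It stood at 0.71 with an adjusted p of 0.0454, a call that 9 settings lost, among them fits without single libraries. Between the knockouts it was called at -1.08 ± 0.20 (edgeR adjusted p = 0.00353), and that call held in every setting.

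The guides that made the knockouts target other chromosomes, and they are printed so that they can be set against the sequence of ZNF521. The protospacers are in lower case with the adjacent NGG motif in capitals.
PAX6_Ta guide 1: gctttctgtgcggttgtggaTGG
PAX6_Ta guide 2: caagtccattccttccccagTGG
PBX3_Cl guide 1: ctcagtactgcaaagactgtGGG
PBX3_Cl guide 2: gcttgtacagttaagcatgaTGG
In GRCh37 the PAX6_Ta guides lie at chr11:31809917-31809939 (minus strand) and chr11:31811316-31811338 (plus strand), with 1410 bases between the expected cuts. The PBX3_Cl guides lie at chr9:128456987-128457009 (plus strand) and chr9:128457970-128457992 (minus strand), within MAPKAP1, with 972 bases between the cuts and no annotated exon there.

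ZNF521 holds 25320 sites with an NGG motif on either strand, and its closest matches to the PAX6_Ta guides, both intronic, differed from them at 6 of 20 positions. In the sites printed here capitals mark the mismatched bases and the NGG motif, and positions are counted from 1 at the 5′ end of the guide, whose base is named first.
Closest site to PAX6_Ta guide 1, chr18:22705767-22705789, plus strand: gcttGctAtCcAgtAgtggCTGG
Closest site to PAX6_Ta guide 2, chr18:22669399-22669421, plus strand: caaTCccaGtcctCcccATgAGG
The mismatches were T5G, G8A, G10C, G12A, T15A and A20C for guide 1 and G4T, T5C, T9G, T14C, C18A and A19T for guide 2. Sites as close as these were common: 72.4% and 64.6% of 254 windows of chromosome 18 with the length of ZNF521 held one for guide 1 and guide 2. Cutting at these sites was not measured in these data.

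Genes from 20 lists were then examined in each comparison: partners, pathways and lineages of ZNF521 and ZNF423, and markers of K562 and other cells. The lists hold 206 genes, 145 of them tested. They were chosen with earlier results of these data known, so the shares called are description and test no link to ZNF521 or ZNF423. In PAX6_Ta KO against Control 42 of the 145 (29.0%) were called, 27 higher and 15 lower, where 11.4% of all tested genes were called, 7.21% higher and 4.21% lower (874 genes lower, and 1520 with the replicate block). In PBX3_Cl KO against Control 22 (15.2%) were called, 12 higher and 10 lower, where 8.97% of all tested genes were, 6.28% higher and 2.69% lower. PAX6_Ta KO against PBX3_Cl KO gave 41 (28.3%), 26 higher and 15 lower, where 12.0% of all tested genes were called, 5.26% higher and 6.71% lower. Each comparison with Control uses the same Control libraries. These shares of all tested genes are the background for every list below. The calls that held in every alternative setting that tested the gene numbered 20, 17 and 16. Without PAX6_Ta KO replicate 1 the list genes called in PAX6_Ta KO against Control were 16 higher and 9 lower, without Control replicate 2 17 were higher, and without PAX6_Ta KO replicate 2 6 were lower. Against PBX3_Cl KO they were 15 higher and 6 lower without PAX6_Ta KO replicate 1, and 7 were lower without PAX6_Ta KO replicate 2.

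EBF1 was the only one of the 4 EBF genes with enough reads to test. It read 67 and 117 in Control, 28 and 25 in PAX6_Ta KO and 9 and 11 in PBX3_Cl KO, and the groups did not overlap. Its log2 fold change was -1.69 ± 0.47 in PAX6_Ta KO (adjusted p = 0.0362) and -2.93 ± 0.52 in PBX3_Cl KO (adjusted p = 0.0032). The call in PAX6_Ta KO was lost with upper-quartile scaling (adjusted p = 0.0563), without Control replicate 2 (0.426) and without PAX6_Ta KO replicate 1 (0.124) or 2 (0.199). EBF1 was thus lowest in PBX3_Cl KO, where ZNF521 was intermediate, although the difference between the knockouts did not pass the test (1.24 ± 0.54, adjusted p = 0.182).

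Among 9 other zinc finger genes whose products are known to carry a NuRD-binding motif, 4 were tested. ZNF827, which brings NuRD to telomeres, read 4 and 2 in Control, 564 and 598 in PAX6_Ta KO and 3 and 6 in PBX3_Cl KO, a rise of 7.67 ± 0.47 on the log2 scale in PAX6_Ta KO (adjusted p = 8.47e-07) with 0.86 ± 0.66 in PBX3_Cl KO (adjusted p = 0.597). ZNF827 reached the filter on low counts through the PAX6_Ta KO libraries alone, so its calls are description. It ran opposite to ZNF521 in PAX6_Ta KO. SALL2 was at 0.61 in PAX6_Ta KO (adjusted p = 0.0904, and 0.0181 with the replicate block), while ZFPM1 and ZFPM2, the FOG co-factors of GATA proteins, passed the test in no comparison. SALL1, SALL3, SALL4, BCL11A and BCL11B had at most 5 counts in any library.

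The subunits of NuRD itself were scarcely among the called genes. All 15 were tested, and 0 were called in PAX6_Ta KO against Control, with a median log2 fold change of -0.03 beside -0.02 for all tested genes. With the replicate block the deacetylase HDAC1 was called lower there (-0.59, adjusted p = 0.0179, and 0.0733 without the block). In PBX3_Cl KO the scaffold subunit GATAD2B read 3877 and 7642 against 2822 and 3384 in Control, a log2 fold change of 1.16 ± 0.28 (adjusted p = 0.0225). That call was lost without Control replicate 1 (0.0784) and without PBX3_Cl KO replicate 2 (0.127), the library with 7642 counts, and with upper-quartile scaling (0.0681) or a stricter filter (0.0541).

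**Figure D4:**
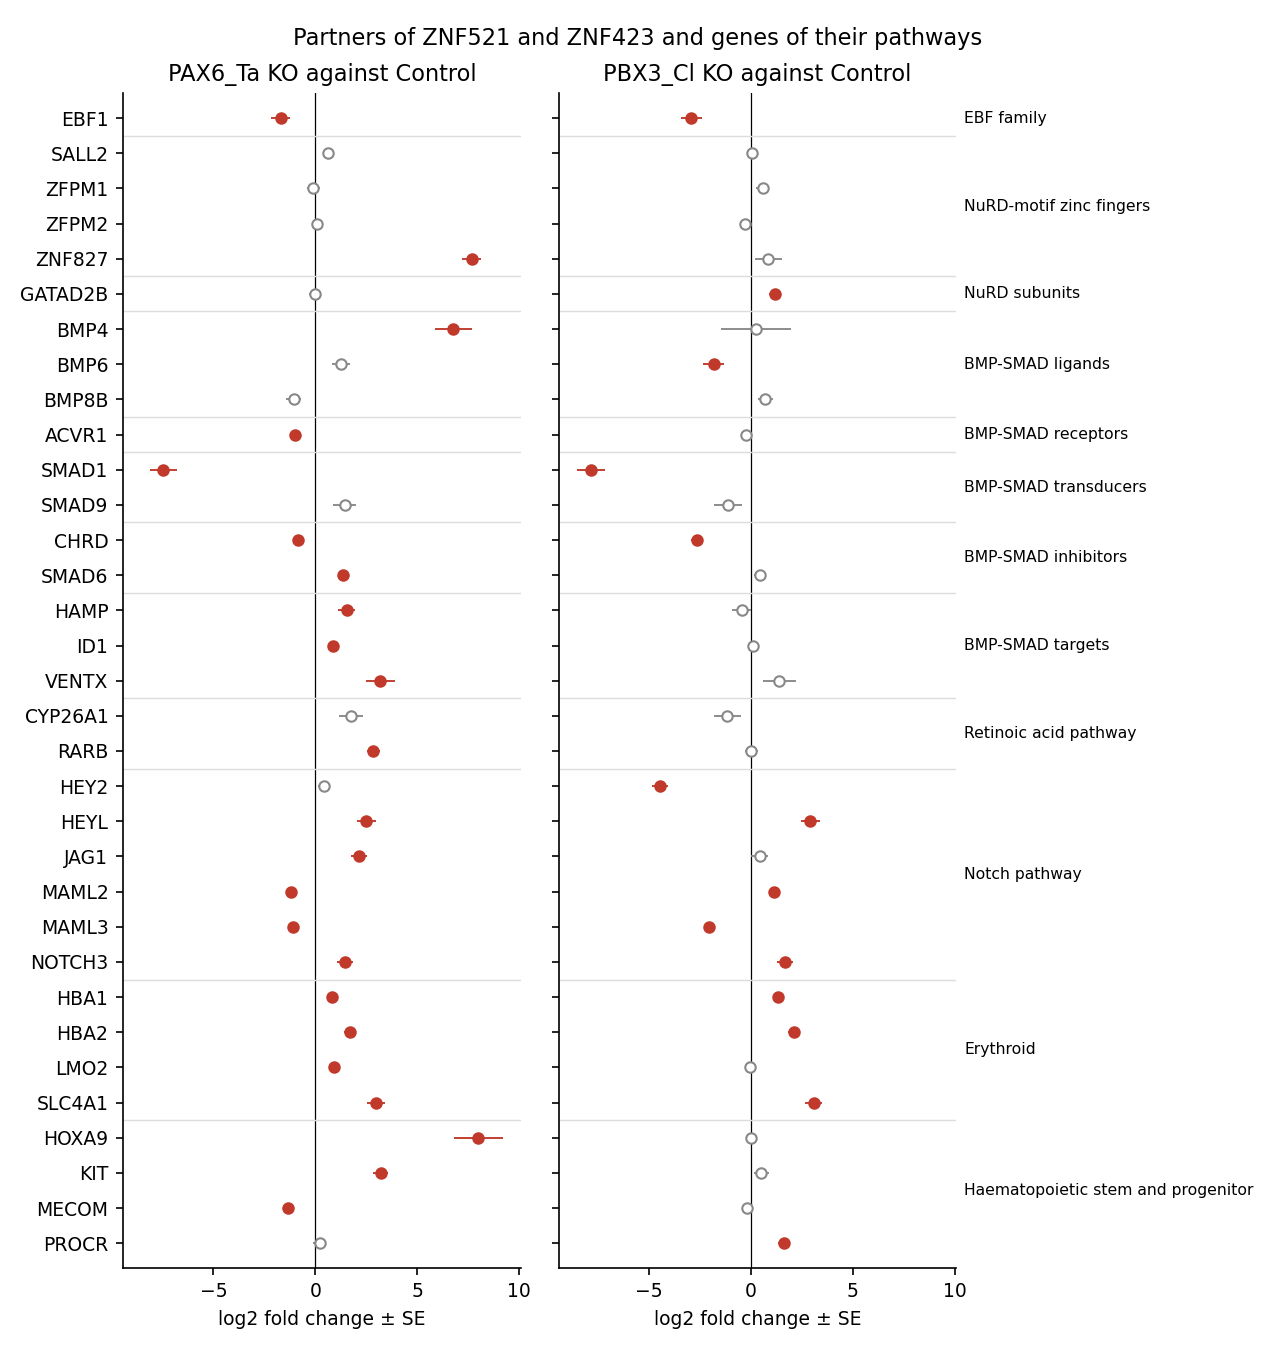
Log2 fold change ± SE in PAX6_Ta KO against Control (left) and PBX3_Cl KO against Control (right) of the named partner and pathway genes, grouped by list. Filled red points passed the adjusted threshold of 0.05, SMAD1 is low and SLC4A1 high in both panels, and fitted values of BMP4, SMAD1 and HOXA9, with 0 to 3 counts in a group, depend on the prior count.

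ZNF423 is best known as a partner of BMP-activated SMADs, and in this pathway 1 transducer was almost lost in both knockouts. SMAD1 read 397 and 240 in Control, 3 and 0 in PAX6_Ta KO and 1 and 1 in PBX3_Cl KO, with no overlap between Control and either knockout. By summed counts it was 193-fold lower in PAX6_Ta KO (95% counting interval 65.9 to 940, adjusted p = 1.49e-05) and 259-fold lower in PBX3_Cl KO (71.4 to 2143, adjusted p = 1.73e-05), and both calls held in every setting. SMAD1 reached the filter on low counts through the Control libraries alone, so its calls are description. SMAD5 and SMAD4 passed the test in no comparison. SMAD9, a further BMP-activated SMAD, read 12 and 15 in Control, 30 and 38 in PAX6_Ta KO and 8 and 2 in PBX3_Cl KO and was called between the knockouts alone (2.57 ± 0.65, adjusted p = 0.0223), a call lost without PAX6_Ta KO replicate 2 (0.0885) or PBX3_Cl KO replicate 2 (0.0962).

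Of the 4 BMP ligands tested, BMP4 rose in PAX6_Ta KO. It read 1 and 0 in Control, 78 and 47 in PAX6_Ta KO and 1 and 0 in PBX3_Cl KO, a ratio to Control of 137-fold (24.2 to 5464, adjusted p = 0.000307). BMP4 reached the filter on low counts through the PAX6_Ta KO libraries alone, so its call is description. BMP6, an inducer of hepcidin, read 103 and 37 in Control, 178 and 115 in PAX6_Ta KO and 13 and 18 in PBX3_Cl KO. Its log2 fold change was -1.83 ± 0.52 in PBX3_Cl KO (adjusted p = 0.0463, lost in 6 settings at 0.0538 to 0.396, among them without Control replicate 1 or either PBX3_Cl KO library) and 1.26 in PAX6_Ta KO (0.111, and 0.0346 with the replicate block). BMP8B was at -1.06 in PAX6_Ta KO (adjusted p = 0.0936, and 0.0271 with the block). With the block the ligand list therefore had 2 members higher and 1 lower in PAX6_Ta KO, against 1 and 0 without it.

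Of 7 BMP receptors tested, ACVR1 alone was called in PAX6_Ta KO (2 lower with the replicate block). It read 1823 and 1298 in Control, 693 and 737 in PAX6_Ta KO and 943 and 1159 in PBX3_Cl KO, a log2 fold change of -0.98 ± 0.20 in PAX6_Ta KO (adjusted p = 0.00736), lost when Control replicate 1 (0.0693) or either PAX6_Ta KO library (0.0664 and 0.0752) was left out. Of the 9 inhibitors tested, CHRD, the secreted BMP antagonist chordin, read 773 and 682 in Control, 350 and 393 in PAX6_Ta KO and 92 and 95 in PBX3_Cl KO. It fell by 2.66 ± 0.26 on the log2 scale in PBX3_Cl KO (adjusted p = 3.36e-05), where the value in PAX6_Ta KO was -0.84 ± 0.24 (0.0428, lost in 6 settings at 0.0531 to 0.335, among them without any 1 of the Control or PAX6_Ta KO libraries). SMAD6, the inhibitory SMAD that BMP signals induce, read 897 and 479 in Control, 1694 and 1471 in PAX6_Ta KO and 614 and 862 in PBX3_Cl KO, and rose by 1.37 ± 0.26 in PAX6_Ta KO (adjusted p = 0.0042).

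Some BMP targets, genes that activated SMADs are known to switch on, rose in PAX6_Ta KO. Of 6 tested, 3 were called higher and 0 lower, with a median log2 fold change of 1.03 beside -0.02 for all tested genes, and in PBX3_Cl KO 0 were called in either direction. Among all tested genes 7.21% were called higher and 4.21% lower in PAX6_Ta KO, and 8.97% were called in PBX3_Cl KO. ID1, an inhibitor of helix-loop-helix factors, read 6312 and 5296 in Control, 10109 and 9158 in PAX6_Ta KO and 6231 and 3865 in PBX3_Cl KO, a log2 fold change of 0.87 ± 0.24 in PAX6_Ta KO (adjusted p = 0.0367). VENTX, a homeobox gene, stood at 3.19 ± 0.72 (adjusted p = 0.0118), and HAMP, the iron hormone hepcidin, at 1.54 ± 0.43 (adjusted p = 0.0353). VENTX reached the filter on low counts through the PAX6_Ta KO libraries alone, so its call is description. Each of the 3 calls depended on single libraries. The call of ID1 was lost when either Control library (0.0972 and 0.105) or PAX6_Ta KO replicate 1 (0.222) was left out. VENTX lost its call when Control replicate 2 (0.0925) or PAX6_Ta KO replicate 1 (0.108) was removed, and that of HAMP without any 1 of the Control or PAX6_Ta KO libraries (0.0571 to 0.3).

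The retinoic acid pathway, whose receptor dimer ZNF423 is known to bind, had 14 tested genes. In PAX6_Ta KO 1 was called higher and 0 lower (2 higher with the replicate block), with a median of 0.01, and in PBX3_Cl KO 0 were called (1 higher and 1 lower with the block). Among all tested genes 11.4% were called in PAX6_Ta KO and 8.97% in PBX3_Cl KO. RARB, a receptor and itself a classical target of retinoic acid, read 58 and 60 in Control, 406 and 371 in PAX6_Ta KO and 53 and 45 in PBX3_Cl KO. It rose by 2.85 ± 0.33 in PAX6_Ta KO (adjusted p = 0.000121) and stood at 0.02 in PBX3_Cl KO (adjusted p = 0.989). CYP26A1, which degrades retinoic acid and is also induced by it, was at 1.75 in PAX6_Ta KO (adjusted p = 0.0767, and 0.0261 with the block).

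In the Notch pathway, 18 genes were tested and calls ran both ways, 4 higher and 5 lower in PAX6_Ta KO (median -0.36) and 3 higher and 3 lower in PBX3_Cl KO (median -0.32). Of all tested genes, 7.21% were called higher and 4.21% lower in PAX6_Ta KO (median -0.02). The shares in PBX3_Cl KO were 6.28% and 2.69% (median -0.01). HEYL, a target gene of Notch, read 13 and 15 in Control, 91 and 53 in PAX6_Ta KO and 88 and 86 in PBX3_Cl KO, with rises of 2.49 ± 0.47 (adjusted p = 0.00402) and 2.91 ± 0.47 (adjusted p = 0.00173). HEY2, a related repressor, read 250 and 197, 277 and 272, and 9 and 7 in the same order, and fell by 4.48 ± 0.39 in PBX3_Cl KO (adjusted p = 1.49e-05) with 0.44 in PAX6_Ta KO. The ligand JAG1 rose in PAX6_Ta KO by 2.14 ± 0.40 (adjusted p = 0.00332). These members of 1 pathway therefore did not move as a block.

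The co-activators and receptors of Notch showed the same mixture. MAML2 read 1275 and 974 in Control, 449 and 448 in PAX6_Ta KO and 1791 and 2152 in PBX3_Cl KO, with changes of opposite sign, -1.18 ± 0.20 in PAX6_Ta KO (adjusted p = 0.00196) and 1.11 ± 0.20 in PBX3_Cl KO (adjusted p = 0.00325). Its relative MAML3 fell in both, by 1.11 ± 0.22 in PAX6_Ta KO (adjusted p = 0.0056, and 0.0541 without PAX6_Ta KO replicate 2) and by 2.07 ± 0.23 in PBX3_Cl KO (adjusted p = 0.000101). The receptor NOTCH1 read 8187 and 9291 in Control, 2833 and 3582 in PAX6_Ta KO and 4280 and 6386 in PBX3_Cl KO, and fell by 1.33 ± 0.23 in PAX6_Ta KO (adjusted p = 0.00238, held in every setting) with -0.44 in PBX3_Cl KO (adjusted p = 0.338). Another receptor of the family differed from it. NOTCH3 read 40 and 44 in Control, 102 and 111 in PAX6_Ta KO and 82 and 141 in PBX3_Cl KO, a log2 fold change of 1.46 ± 0.39 (adjusted p = 0.0306, lost without any 1 of the Control or PAX6_Ta KO libraries at 0.0582 to 0.187) and 1.68 ± 0.39 (0.0172, lost without Control replicate 1 at 0.108 or PBX3_Cl KO replicate 2 at 0.0653).

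ZNF521 is known to hold back erythroid differentiation, and K562 cells stand at an early erythroid stage. The 23 erythroid genes were all tested. In PAX6_Ta KO 7 were called higher and 2 lower, where 7.21% and 4.21% of all tested genes were. Their median log2 fold change was 0.13 beside -0.02 for all tested genes. In PBX3_Cl KO 3 were called higher and 0 lower (6 higher with the replicate block), where 6.28% and 2.69% of all tested genes were. The median there was 0.43 beside -0.01. GATA1 had 18171 and 12796 counts in Control, 13294 and 11523 in PAX6_Ta KO and 14627 and 15644 in PBX3_Cl KO and passed the test in neither comparison. Summed over the list, the level was 6970 to 8272 CPM in Control, 10787 to 12703 in PAX6_Ta KO and 10101 to 10947 in PBX3_Cl KO, and both knockouts lay above Control. A sum weighs the most abundant genes most. Of the 23 genes, 14 had a log2 fold change above 0 in PAX6_Ta KO and 17 in PBX3_Cl KO.

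SLC4A1, the band 3 anion exchanger of the red cell membrane, read 190 and 69 in Control, 1032 and 746 in PAX6_Ta KO and 556 and 1185 in PBX3_Cl KO. It rose by 2.97 ± 0.43 in PAX6_Ta KO (adjusted p = 0.0006) and by 3.08 ± 0.43 in PBX3_Cl KO (adjusted p = 0.000568). The alpha-globin gene HBA2 read 13702 and 9566, 35784 and 31481, and 31032 and 49532, with rises of 1.68 ± 0.26 (adjusted p = 0.000955) and 2.10 ± 0.26 (adjusted p = 0.000252). HBA1 is nearly identical to HBA2, so the split of reads between them is uncertain.

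Of 17 genes of haematopoietic stem and progenitor cells, where ZNF521 is usually found, 11 were tested, with 2 called higher and 1 lower in PAX6_Ta KO (2 lower with the replicate block) and 1 higher and 0 lower in PBX3_Cl KO. The shares of all tested genes were 7.21% higher and 4.21% lower in PAX6_Ta KO, and 6.28% and 2.69% in PBX3_Cl KO. KIT, the receptor for stem cell factor, read 137 and 60 in Control, 787 and 830 in PAX6_Ta KO and 139 and 84 in PBX3_Cl KO, a rise of 3.20 ± 0.37 in PAX6_Ta KO (adjusted p = 0.000111). HOXA9 had 0 counts in Control and in PBX3_Cl KO and 38 and 25 in PAX6_Ta KO, at least 23.1-fold higher than in Control (adjusted p = 0.00152). HOXA9 reached the filter on low counts through the PAX6_Ta KO libraries alone, so its call is description. MECOM, a stem cell zinc finger factor, read 3920 and 3010 in Control, 1183 and 1327 in PAX6_Ta KO and 2539 and 2392 in PBX3_Cl KO, and fell by 1.33 ± 0.19 in PAX6_Ta KO (adjusted p = 0.000511). PROCR was the gene called in PBX3_Cl KO, at 1.62 ± 0.30 (adjusted p = 0.00438). Over the 11 tested genes the median log2 fold change in PAX6_Ta KO was -0.20, beside -0.02 for all tested genes, and 4 lay above 0. The called progenitor genes therefore went both ways there, while the median of the list lay below 0.

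ZNF521 restrains EBF1, so genes of B-lymphoid identity were read beside it, although K562 is not a B cell line. Of 14 such genes 8 were tested, with 0 called in PAX6_Ta KO and 2 higher and 1 lower in PBX3_Cl KO (median 0.13), and the B-cell surface gene MS4A1 had 0 counts in every library. Among all tested genes 11.4% were called in PAX6_Ta KO, and 6.28% higher and 2.69% lower in PBX3_Cl KO (median -0.01). RAG1, a recombinase of antigen receptor genes, read 219 and 174 in Control, 227 and 230 in PAX6_Ta KO and 495 and 456 in PBX3_Cl KO, a log2 fold change of 1.58 ± 0.26 in PBX3_Cl KO (adjusted p = 0.0021). RAG2, its partner, had 1 and 1, 4 and 2, and 30 and 18 counts, a ratio in PBX3_Cl KO of 29.5-fold (7.74 to 251, adjusted p = 0.00285). RAG2 reached the filter on low counts through the PBX3_Cl KO libraries alone, so its call is description. CD22, a lectin of the B-cell surface, read 833 and 700, 1031 and 900, and 107 and 90, and fell by 2.66 ± 0.25 in PBX3_Cl KO (adjusted p = 2.85e-05). The recombinase genes and CD22 thus went opposite ways in the line where EBF1 was lowest.

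ZNF423 marks cells of the fat and mesenchymal lineages, whose 17 listed genes had 9 tested, with 2 called higher and 1 lower in PAX6_Ta KO and 1 higher and 1 lower in PBX3_Cl KO. The shares of all tested genes were 7.21% higher and 4.21% lower in PAX6_Ta KO, and 6.28% and 2.69% in PBX3_Cl KO. The collagen gene COL1A2 read 2922 and 6703 in Control, 853 and 992 in PAX6_Ta KO and 61 and 78 in PBX3_Cl KO, with log2 fold changes of -2.31 ± 0.36 (adjusted p = 0.00108) and -5.87 ± 0.44 (adjusted p = 4.92e-06). Its partner chain COL1A1 moved the other way in PAX6_Ta KO, from 8 and 7 to 224 and 207 counts (4.96 ± 0.52, adjusted p = 4.89e-05). RUNX2, the master factor of bone, was at 1.89 ± 0.43 in PAX6_Ta KO (adjusted p = 0.0121), a call that did not hold when Control replicate 1 (0.114) or PAX6_Ta KO replicate 2 (0.0844) was removed. COL3A1 was the gene called higher in PBX3_Cl KO, at 2.91 ± 0.55 (adjusted p = 0.00486).

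In the direct comparison of the knockouts ZNF521 itself is description only. The following genes are examples from the 16 list genes whose call held in every setting. They were not picked by size, since LIN28A had a larger log2 difference, 8.32 ± 0.30. MAML2 had a log2 difference of -2.29 ± 0.21 (PAX6_Ta KO minus PBX3_Cl KO, adjusted p = 1.48e-05) and HEY2 one of 4.92 ± 0.40 (adjusted p = 5.89e-06). ZNF827 stood at 6.82 ± 0.44 (adjusted p = 1.17e-06) and RARB at 2.82 ± 0.34 (adjusted p = 0.000135). SMAD1, near 0 in both, gave a log2 difference of 0.39 (adjusted p = 0.901), which rests on 3 reads against 2 and so fixes no order.

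Genes that followed the pattern of ZNF521 across the 6 libraries were sought by the distance between centred log2 profiles (root mean square) and are given as description. The nearest was ENSG00000266976, a lncRNA gene on chromosome 19, at a distance of 0.536 (Pearson r = 0.994 over 6 libraries). It read 72948 and 45076 in Control, 119 and 193 in PAX6_Ta KO and 34077 and 36183 in PBX3_Cl KO, a far more abundant transcript with a smaller fall. UGT8 followed at 0.892 (r = 0.982) and ENSG00000259560, a lncRNA gene on chromosome 15 with 202 and 153, 0 and 1, and 60 and 43 counts, at 0.941 (r = 0.996). ENSG00000260725 stood at 1.25 and TUBBP9 at 1.35. Likeness in shape alone was common, since 316 of the 20745 other tested genes had r above 0.95 over these 6 libraries, which share 3 group means. Within a distance of 1 lay 3 genes. ZNF521 was chosen for the largest decrease, so few genes could share its depth, and this count shows no rarity. By Pearson's r in place of distance the 5 nearest genes shared 1 with this list, ENSG00000259560.

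**Figure D5:**
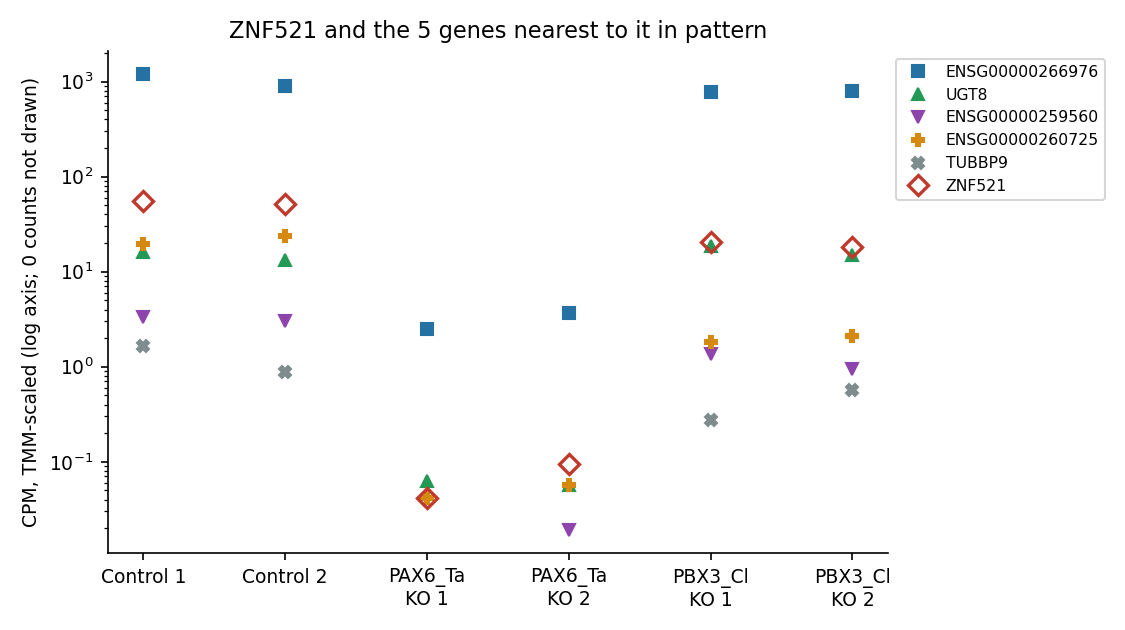
CPM (TMM-scaled, log axis) of ZNF521 (open red diamonds) and of the 5 genes nearest to it in pattern, in each of the 6 libraries, with libraries at 0 counts not drawn. All 6 genes are lowest in the PAX6_Ta KO libraries, and UGT8 alone has PBX3_Cl KO levels within the range of its Control levels or above it.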

How the data were processed

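Total RNA of the 6 K562 libraries was sequenced from a stranded library preparation. The authors trimmed reads with cutadapt 3.4, aligned them with STAR to GRCh37 and deposited 1 table of raw read counts per gene, which was used here. Sources used here do not give the strand setting of the counting. The deposited tables of the authors' own comparisons (log2 fold changes and p-values) were not used, nor were 4 further sample columns of the count table, which match no sample described here.

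The libraries, taken to groups by the labels, held 45912044 to 60908470 counts, so a count of 0 allowed at most 0.0680 CPM per library (floor of 3 counts). Intervals and floors cover counting error only. Of 52088 entries, 17198 had no count and 20746 passed edgeR's filterByExpr. All 6 libraries were fitted in 1 quasi-likelihood model (R 4.3.3, edgeR 4.0.16, limma 3.58.1) with TMM factors, and p-values were adjusted by Benjamini-Hochberg over all tested genes, with calls at 0.05. The prior degrees of freedom were 9.18. Fold changes of genes with 0 counts in a group are lower bounds on the floor over the group, and those with 1 to 3 counts are ratios with exact intervals. No test was read for ZNF521 in PAX6_Ta KO, since it was chosen there, or for genes chosen by their decrease or likeness. The call of ENSG00000264434 in PAX6_Ta KO enters only the counts of called genes around ZNF521. BMP4, DPPA4, HOXA9, VENTX and ZNF827 reached the filter on low counts through the PAX6_Ta KO libraries alone. KCTD1 and RAG2 did so through those of PBX3_Cl KO, and SMAD1 and ENSG00000264151 through those of Control. Their calls and adjusted p-values are description.

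The genes named beside ZNF521 and ZNF423 were the entries next in decrease, the 5 nearest in centred log2 CPM profile, the neighbours and called genes within 5 Mb, and up to 3 list genes per list and comparison with the largest change among those called, with all EBF and NuRD-motif genes. GATA1, HDAC1, SMAD4, SMAD5, UGT8 with its count thresholds, NOTCH1, PAX6, PBX3, MS4A1, GATA6-AS1 and the leading marker genes were named after their values were seen. A result from the erythroid list is not reported here. The members, lists and tests were chosen with earlier results of these data known. Gene positions came from GENCODE release 44 on GRCh37, with 36674 entries matched by symbol and 13602 by identifier. Guides were taken from the study's sequences, and NGG sites within the genes were compared with them on both strands.

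Same-numbered libraries deviated together from their group means across genes (correlations 0.339, 0.184 and 0.338 for Control with PAX6_Ta KO, Control with PBX3_Cl KO and the 2 knockouts), so a fit that blocks on that number was an alternative whose values are given where they change a call. Other alternatives were DESeq2 1.42.0 (size factors, and its Wald test), upper-quartile factors, no filter, a stricter filter (1 CPM in 2 libraries) and 2 groups only. Further ones were removal of the median of the tested protein-coding genes of the chromosome arm, and leaving out each library. The model was tested on simulated counts. Summaries and plots used Python 3.11.15, numpy 2.4.6, pandas 2.3.3, scipy 1.17.1, Biopython 1.88 and matplotlib 3.10.9.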

Additional observations from a re-analysis of the deposited data

How the results depend on the processing

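The decrease of ZNF521 in PBX3_Cl KO kept its direction and its call in all alternatives that refitted the model, and was -1.47, with no test, when the median of the long arm of chromosome 18 was taken out. As description, ZNF521 ran from -10.25 to -9.11 against Control and from -8.77 to -7.63 against PBX3_Cl KO in PAX6_Ta KO when single libraries were left out. ZNF423 had no test, so alternatives gave it no value. With the replicate block, all genes called lower in PAX6_Ta KO against Control numbered 1520 (874 without it, and 1317 with 2 groups only), lower in PBX3_Cl KO against Control 876 (558), and higher and lower in PAX6_Ta KO against PBX3_Cl KO 1672 (1091) and 2205 (1392). The block left ZNF521 at -9.54, -1.48 (adjusted p = 0.000757) and -8.06 in the 3 comparisons.

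Within 5 Mb of ZNF521, the 2 genes called in PAX6_Ta KO against Control became 1 with upper-quartile factors or the DESeq2 Wald test, 0 with the stricter filter, which removed them from testing, and 4 without a filter, with 2 groups only or with the replicate block. The 5 in PBX3_Cl KO became 2 with the stricter filter, and the 5 between the knockouts became 2 with it and 3 with 2 groups only. Within 5 Mb of ZNF423, the 2 in PBX3_Cl KO became 1 with DESeq2 or upper-quartile factors, the stricter filter or 2 groups only, and 4 with the block. Around ZNF521 the stricter filter tested fewer genes; the cause was not tested for the others, nor for the stricter filter around ZNF423.

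Leaving out single libraries gave, in PAX6_Ta KO against Control, 927 to 1939 genes higher and 427 to 1429 lower, 16 to 30 list genes higher and 6 to 19 lower, and 1 to 5 and 1 to 4 genes around ZNF521 and ZNF423. PBX3_Cl KO against Control gave 849 to 1340 genes higher and 1 to 3 around ZNF423. PAX6_Ta KO against PBX3_Cl KO gave 662 to 1425 higher and 606 to 1535 lower, 15 to 29 list genes higher and 6 to 16 lower, and 2 to 5 genes around each of ZNF521 and ZNF423. With a group left at 1 library, that library is assumed to vary like the others. With 2 libraries a group, depth limits ZNF423 and the level of ZNF521 in PAX6_Ta KO, which rest on 0 to 5 reads per library.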

Other observations

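Among the genes nearest to ZNF521 in pattern, 2 lncRNA genes lie close together on chromosome 19 in GRCh37, ENSG00000260725 at chr19:28909390-28920397 and ENSG00000266976 at chr19:29097595-29106136. Both were almost lost in PAX6_Ta KO. In PBX3_Cl KO they differed, with 81 and 96 counts against 1175 and 1193 in Control for ENSG00000260725 and 34077 and 36183 against 72948 and 45076 for ENSG00000266976. They were noticed after their values were seen.

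Markers of other lineages differed between the groups, in both directions within a list. LIN28A, an RNA-binding protein of early embryonic cells, read 281 and 177 in Control, 5087 and 5368 in PAX6_Ta KO and 13 and 16 in PBX3_Cl KO, a rise of 4.66 ± 0.23 (SE, adjusted p = 1.91e-07) in one knockout and a fall of 3.66 ± 0.28 (adjusted p = 5.4e-06) in the other on the log2 scale (edgeR). The epithelial adhesion gene EPCAM read 2538 and 2300, 176 and 112, and 1180 and 1003, and fell by 3.92 ± 0.28 in PAX6_Ta KO (adjusted p = 3.09e-06). The keratin genes of the same list went the other way there, KRT18 at 1.06 ± 0.27 (adjusted p = 0.0226, lost without Control replicate 1 at 0.123 or PAX6_Ta KO replicate 1 at 0.129) and KRT19 at 1.11 ± 0.32 (adjusted p = 0.0415, lost in 4 settings at 0.0508 to 0.302, among them without Control replicate 2 or PAX6_Ta KO replicate 1), with KRT8 at 1.05 (adjusted p = 0.0677). The 5 T-lymphoid markers summed to 3.03 to 3.85 CPM in Control, 5.72 to 10.8 in PAX6_Ta KO and 1.88 to 5.60 in PBX3_Cl KO, the 5 myeloid markers to 5.43 to 8.59, 7.88 to 12.2 and 6.53 to 7.49, and the 5 epithelial markers to 722 to 958, 1301 to 2025 and 652 to 1122. The part of any of these in the level of ZNF521 was not tested.

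The gene PBX3, for which the PBX3_Cl element is named, read 53 and 49 in Control, 282 and 274 in PAX6_Ta KO and 235 and 280 in PBX3_Cl KO. It was higher in both knockouts, by 2.58 ± 0.31 (adjusted p = 0.000167) and 2.62 ± 0.31 (adjusted p = 0.000178) on the log2 scale.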
